A study of Mus musculus with 12 samples.

Results

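The 10 genes described here encode the contractile and intermediate filament proteins Acta2, Tagln, Cnn1, Myl9, Tpm1, Tpm2, Actn1, Actn4, Vim and Des. They were taken from the count table by gene symbol, which gave 1 row for each of the 10 among the 37991 rows. RNA was from pancreatic islets of male C57BL/6 mice. Wt mice were the littermate controls, and Tg7 mice carry a transgene that overexpresses miR-7 in β-cells, with a promoter not given in the sources used here. Islets were taken at 2 weeks (2w) and 12 weeks (12w) of age, and each of the 4 groups had 3 libraries, numbered 1, 2 and 4 for 12w Wt. The labels name no other allele and no treatment in any group. Each library was a pool from at least 3 animals, so the p-values measure the spread between pools. The study compared Tg7 with Wt before (2w) and after (12w) the onset of hyperglycaemia.

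Smooth muscle cells and pericytes contract when myosin pulls on actin filaments. Acta2 is the α-actin of these cells, Tagln (transgelin) and Cnn1 (calponin) bind actin filaments, and Myl9 is a regulatory light chain of smooth muscle and non-muscle myosin. Tropomyosins (Tpm1, Tpm2) lie along the actin filament and set which proteins can bind it, while the α-actinins Actn1 and Actn4 cross-link actin filaments in most cell types. Vim (vimentin) forms the intermediate filaments of mesenchymal and endothelial cells, and Des (desmin) those of muscle and of pericytes. In the pancreas Des and Vim are used to mark quiescent stellate cells and Acta2 to mark activated ones, and gain of Vim and Acta2 is often read as a mesenchymal feature of epithelial cells. In whole islets more cells of a type and more RNA per cell cannot be told apart.

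Counts per library ranged from 11610697 to 17515758, and the insulin genes Ins1 and Ins2 took 1.84% to 30.0% of them. Levels are given as CPM, the counts of a gene scaled to a common library total, after TMM scaling, which corrects the library sizes for such abundant genes. A pair of libraries stood apart from the others of their group. The Tg7 2w library 1 had a summed level of 10 T and B lymphocyte markers of 62.0 CPM, against 3.09 to 13.1 CPM in the other 11 libraries. The 12w Wt library 4 had 14.8% insulin counts, against 27.0% and 30.0% in the other 2 libraries of that group.

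The sequences that connect these genes to the transgene and to their best known regulator were examined first. The mature miRNA of the transgene family pairs with its targets through its seed, bases 2 to 8, shown here in capitals as given by RefSeq.

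mmu-miR-7a-5p: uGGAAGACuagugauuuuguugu

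A match to this seed (TCTTCC followed by A, or GTCTTCC, on the sense strand) was found in the annotated 3′UTR of 1 of the 10 genes, Des, and in 23.1% of the 19984 genes with an annotated 3′UTR. The match in Des lies at position 52 of a 3′UTR of 1529 bases. It is shown in capitals within chr1:75363666-75363694, plus strand of mm9.

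Des: tgaagccagccTCTTCCActctcggatat

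Contractile genes are classically driven by serum response factor (Srf), which binds the CArG box, CC followed by 6 A or T bases and GG. The box reads alike on both strands. It was searched in the 300 bases around the RefSeq start (250 before, 50 after) of the 9 genes with a promoter entry, and Tagln had none. The exact box was found in 1 of the 9, Myl9, and in 1.63% of 32851 promoters in the table. After that result was seen, a box with 1 of its 6 central bases off was also searched, and it was found in 2 of the 9 genes, Acta2 and Myl9, and in 8.5% of promoters. The stretches below, from mm9, show each box in capitals.

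Myl9, exact, chr2:156601029-156601058, plus strand: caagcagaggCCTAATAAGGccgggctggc

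Myl9, 1 base off, chr2:156601091-156601120, plus strand: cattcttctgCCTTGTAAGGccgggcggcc

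Acta2, 1 base off, chr19:34329928-34329957, minus strand: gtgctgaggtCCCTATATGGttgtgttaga

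Acta2, 1 base off, chr19:34329878-34329907, minus strand: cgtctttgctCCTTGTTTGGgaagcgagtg

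The 2 boxes of Acta2 end 75 and 25 bases before its RefSeq start, and those of Myl9 end 152 and 90 bases before its RefSeq start. The RefSeq starts of both genes differ from the gene coordinates given below. The boxes are matches of letters, not measured binding.

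The 10 genes covered a wide range of levels. Per kilobase of exon, Actn4 was highest in 2w Wt islets at 75.9 ± 6.39 CPM per kb (SD, n = 3), followed by Vim at 37.2 ± 8.87 and Tpm1 at 37.1 ± 0.52, whose libraries overlapped. Actn1 followed at 29.0 ± 2.31 CPM per kb, apart from its neighbours. The smooth muscle genes lay well below these. Tagln stood at 6.58 ± 2.02 CPM per kb and Myl9 at 6.18 ± 0.895, again overlapping. Acta2 (4.50 ± 0.885) and Tpm2 (3.82 ± 0.18) overlapped as well, Des was at 2.06 ± 0.535, and Cnn1 came last at 0.111 ± 0.0319 CPM per kb. The order was not the same in the other groups. In 2w Tg7 islets Vim reached 63.4 ± 18.1 CPM per kb and overlapped Actn4 (61.8 ± 3.86), whereas in 12w Wt islets Vim had the fourth level at 11.9 ± 3.34, below Actn4 (98.3 ± 1.83), Tpm1 (33.3 ± 1.57) and Actn1 (24.2 ± 3.61) with no overlap. In 12w Tg7 islets it was second again at 36.1 ± 2.79 CPM per kb.

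**Figure D1:**
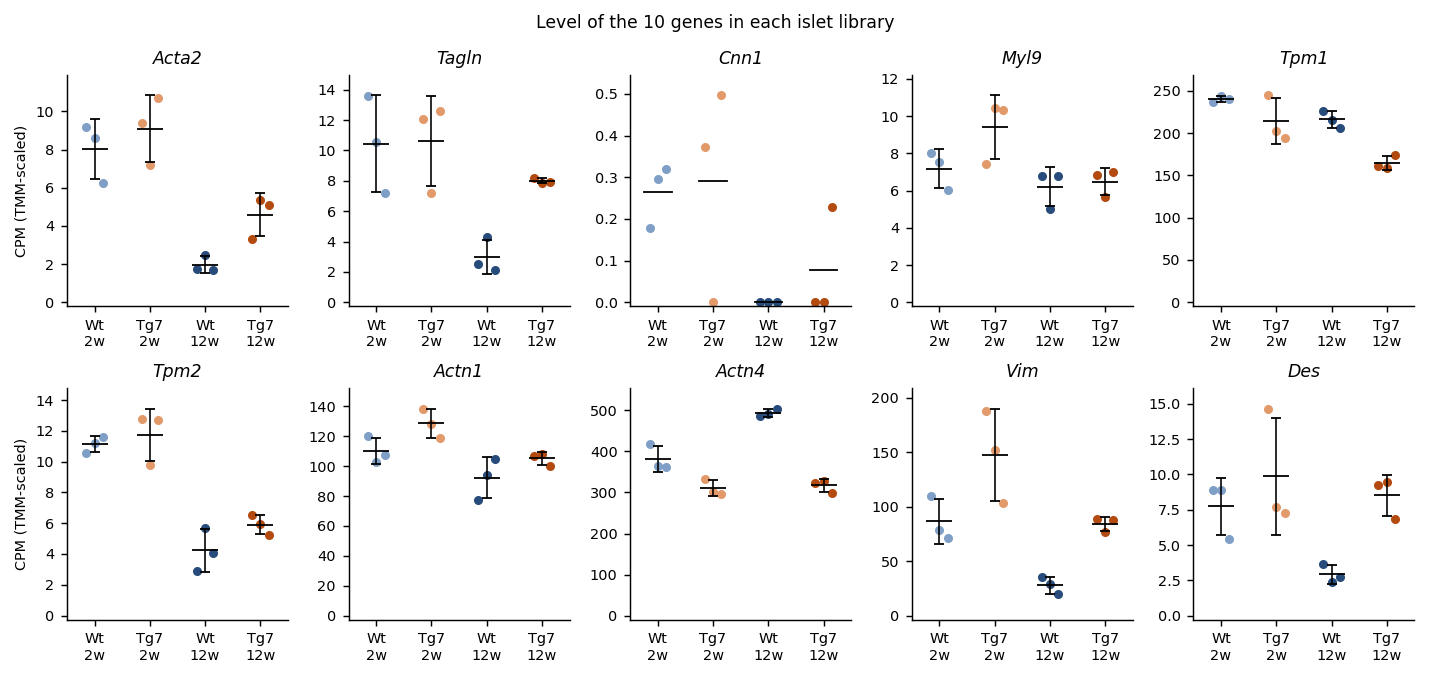
Level of each of the 10 genes in the 12 islet libraries. Each panel is 1 gene with its own linear axis of TMM-scaled CPM, points are libraries, the horizontal line is the group mean and the bars are ± SD (left out for Cnn1, which is near 0). Acta2, Tagln, Vim and Des were lowest in the 3 12w Wt libraries, with Vim between 19.5 and 35.0 CPM there.

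At 12w the intermediate filament genes of mesenchymal cells were higher in Tg7 islets. Vim (ENSMUSG00000026728, mm9 chromosome 2, 13495554 to 13504453) was at 35.0, 28.6 and 19.5 CPM in the 12w Wt libraries and at 88.7, 76.9 and 87.5 CPM in the 12w Tg7 libraries, so the groups did not overlap. Its level rose 3.06-fold (log2 1.62, SE 0.24, adjusted p = 0.000337 by edgeR's quasi-likelihood test with Benjamini-Hochberg adjustment over 15961 genes, as for all adjusted p-values below). Des (ENSMUSG00000026208, chromosome 1, 75356904 to 75365154), the gene with the seed match, was at 3.66, 2.38 and 2.73 CPM in Wt and at 9.25, 9.46 and 6.87 CPM in Tg7 islets. That is 2.95-fold higher (log2 1.56, SE 0.33, adjusted p = 0.00363), again without overlap. The ratio of Des to Vim counts within a library was 0.109 ± 0.0286 (SD, n = 3) with Wt and 0.102 ± 0.0224 with Tg7 mice, and these overlapped (exact permutation test, two-sided, p = 0.7).

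Smooth muscle actin and transgelin rose with them. Acta2 (ENSMUSG00000035783, chromosome 19, 34315580 to 34329826) was at 1.76, 2.46 and 1.67 CPM in 12w Wt and at 3.33, 5.37 and 5.09 CPM in 12w Tg7 libraries, 2.33-fold higher (log2 1.22, SE 0.29, adjusted p = 0.00874). Tagln (ENSMUSG00000032085, chromosome 9, 45737711 to 45744141) was at 2.52, 4.29 and 2.13 CPM in Wt and at 8.18, 7.86 and 7.95 CPM in Tg7 islets, 2.67-fold higher (log2 1.42, SE 0.32, adjusted p = 0.00593). In both genes every Tg7 library lay above every Wt library. Myl9 (ENSMUSG00000067818, chromosome 2, 156601156 to 156607394) was at 6.81, 5.0 and 6.80 CPM in Wt and at 6.82, 5.64 and 6.98 CPM in Tg7 islets. Its difference of 0.066 on the log2 scale (SE 0.23, adjusted p = 0.874) was within the spread between libraries. Cnn1 (ENSMUSG00000001349, chromosome 9, 21903725 to 21914074) did not pass the filter on low counts, with 0 counts in the 3 Wt libraries and 4 in the Tg7 libraries, all in library 3. At this depth no difference in Cnn1 could be measured, and the 0 counts allow up to 3 counts over the group.

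The widely expressed actin partners went the other way or did not pass the test. Actn4 (ENSMUSG00000054808, chromosome 7, 29678267 to 29747359) was at 487, 491 and 505 CPM in 12w Wt and at 323, 329 and 299.6 CPM in 12w Tg7 libraries, so all Tg7 libraries were lower. The fall was 1.56-fold (log2 −0.64, SE 0.11, adjusted p = 0.000935). Scaled by library size alone, which moves the median over all genes from −0.013 to 0.43 (log2), the Actn4 value was −0.20 (adjusted p = 0.288), that is −0.63 relative to that median. Tpm1 (ENSMUSG00000032366, chromosome 9, 66870397 to 66897213) was at 226, 216 and 206 CPM in Wt and at 161, 159 and 173 CPM in Tg7 islets. It fell 1.31-fold (log2 −0.39, SE 0.11, adjusted p = 0.0227), but its sign turned to 0.058 with library size alone, or −0.37 relative to the median of that scaling. The other member of each pair did not pass the test. Tpm2 (ENSMUSG00000028464, chromosome 4, 43527583 to 43536637) was at 2.9, 5.72 and 4.07 CPM in Wt and at 6.54, 5.92 and 5.26 CPM in Tg7 islets, a difference of 0.46 (SE 0.24, adjusted p = 0.186) with overlapping groups. Actn1 (ENSMUSG00000015143, chromosome 12, 81268529 to 81361358) was at 77.5, 94.1 and 105 CPM in Wt and at 107, 108 and 100.1 CPM in Tg7 islets, a difference of 0.19 (SE 0.13, adjusted p = 0.313) with overlapping groups.

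Over the 9 tested genes, 6 passed the test at 12w, 4 higher and 2 lower, where 23.6% of all tested genes did (12.5% higher and 11.2% lower). The same 6 genes had groups without overlap, which was the case for 20.7% of all genes upward and 16.3% downward. The median log2 fold change of the 9 was 0.46, beside −0.013 for all genes. Without the 12w Wt library 4 the same contrast gave 1.42 for Vim, 1.53 for Des, 1.1 for Acta2 and 1.20 for Tagln, and 6 genes passed. The calls of Vim, Des, Acta2, Tagln and Actn4 held with each of the 12 libraries left out, with Acta2 between 1.09 and 1.42. The call of Tpm1 was lost without any one of the 12w Tg7 libraries (adjusted p up to 0.0943) and its estimate lay between −0.43 and −0.36. It was also lost with upper-quartile factors (−0.31, adjusted p = 0.0766), with no filter (−0.38, adjusted p = 0.0639) and with edgeR on the 12w libraries alone (−0.42, adjusted p = 0.0579).

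**Figure D2:**
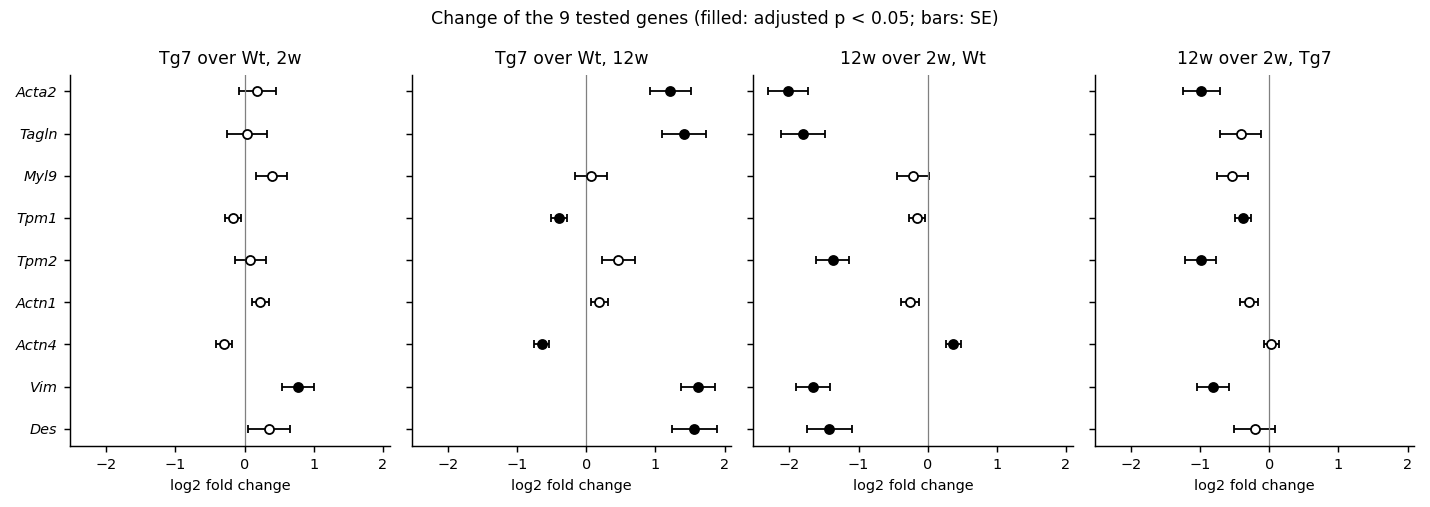
Log2 fold change of the 9 tested genes in 4 comparisons, from edgeR with TMM scaling. Points are estimates, bars are standard errors and filled points passed an adjusted p of 0.05. At 12w Vim, Des, Tagln and Acta2 lie between 1.22 and 1.62 while Tpm1 and Actn4 lie below 0, Tpm1 turning to 0.058 with library size alone.

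Ratios of 2 genes within a library do not depend on the scaling, and they were taken for paralogues and partners after the values above had been seen. The ratio of the actinins is given first. In 2w Wt islets there were 0.287, 0.283 and 0.296 Actn1 counts per Actn4 count, and in 2w Tg7 islets 0.417, 0.426 and 0.401. At 12w the ratio was 0.159, 0.192 and 0.208 in Wt and 0.332, 0.33 and 0.334 in Tg7 islets. The ratio was thus higher with Tg7 at both ages, 1.44-fold at 2w (log2 0.52, SE 0.03) and 1.79-fold at 12w (log2 0.84, SE 0.11), and no library overlapped. All 3 Wt and 3 Tg7 libraries at 12w also lay below the same genotype at 2w.

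The ratio of the tropomyosins had more spread. At 2w there were 0.0463 ± 0.00184 (SD, n = 3) Tpm2 counts per Tpm1 count with Wt and 0.0553 ± 0.00895 with Tg7 mice. At 12w the ratio was 0.0197 ± 0.00685 with Wt and 0.0361 ± 0.00522 with Tg7 mice, 1.90-fold higher (log2 0.93, SE 0.33). The share of Acta2 in the counts of 6 actin genes (Acta1, Acta2, Actb, Actc1, Actg1, Actg2) was 0.531% ± 0.0808 with 2w Wt mice. At 12w it was 0.0732% ± 0.0162 with Wt and 0.255% ± 0.0759 with Tg7 mice, 3.44-fold higher (log2 1.78, SE 0.33). At 12w there were 0.685 ± 0.104 Acta2 counts per Tagln count with Wt and 0.577 ± 0.149 with Tg7 mice, which overlapped. With 3 libraries a group the exact permutation test (two-sided) cannot go below p = 0.1. That value was reached for Actn1 per Actn4 and Tpm2 per Tpm1 in all 4 comparisons, for the Acta2 share in all but the 2w one, and for Des per Vim and Acta2 per Tagln with age in Tg7 islets, and the adjusted p over the 20 comparisons was 0.154 for each.

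**Figure D3:**
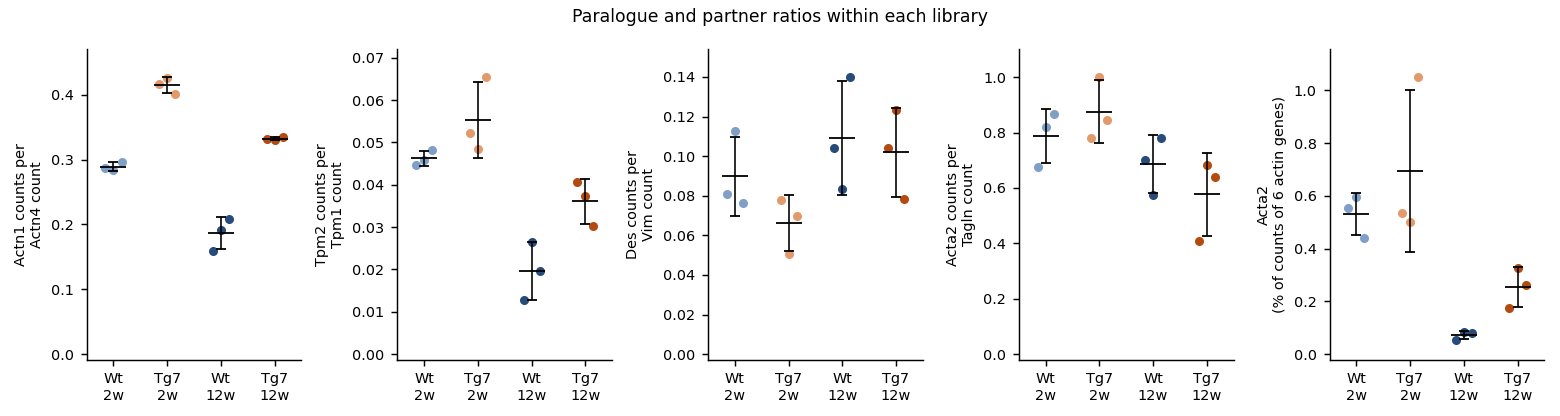
Ratios of counts within each library, which need no scaling between libraries. Points are libraries, lines are group means and bars ± SD, and the last panel is the percent of the counts of 6 actin genes that came from Acta2. In Actn1 per Actn4 none of the 4 groups overlap, from 0.159 to 0.208 in 12w Wt libraries up to 0.401 to 0.426 in 2w Tg7 libraries.

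At 2w few of these genes differed between Tg7 and Wt islets. Vim was at 110, 79.0 and 71.2 CPM in Wt and at 188, 152 and 104 CPM in Tg7 libraries. It was the 1 gene of 9 that passed the test, where 10.6% of all genes did (6.07% higher and 4.55% lower), with a 1.70-fold rise (log2 0.77, SE 0.23, adjusted p = 0.0495), although the lowest Tg7 library lay below the highest Wt library. The Tg7 2w library 1, with the lymphocyte markers, held the highest value, and without it the difference was 0.56 (adjusted p = 0.162). The call was also lost without each of 7 other libraries (Wt 2w 2 and 3, Tg7 2w 2, Wt 12w 2 and the 3 of Tg7 12w), with adjusted p up to 0.197. Des was at 8.90, 8.91 and 5.43 CPM in Wt and at 14.7, 7.66 and 7.25 CPM in Tg7 islets, with library 1 again the highest. Its difference of 0.35 (SE 0.30, adjusted p = 0.496) became −0.050 without that library.

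Acta2 was at 9.20, 8.62 and 6.22 CPM in 2w Wt and at 9.39, 7.21 and 10.7 CPM in 2w Tg7 libraries, and Tagln at 13.6, 10.5 and 7.18 CPM against 12.1, 7.21 and 12.6 CPM. Their differences of 0.19 (SE 0.26) and 0.031 (SE 0.29) were within the spread between libraries, with adjusted p = 0.70 and 0.961. Actn4 was the only gene of the 9 whose 2w groups did not overlap, at 419, 364 and 362 CPM in Wt and 333, 302 and 297 CPM in Tg7 islets, beside 17.8% of all genes upward and 18.1% downward. Its difference of −0.30 (SE 0.11) had adjusted p = 0.0968 by edgeR and 0.0385 by DESeq2 on all 12 libraries. The remaining 4 genes, Myl9, Tpm1, Tpm2 and Actn1, had overlapping groups and differences between −0.17 and 0.39. Cnn1 had 13 counts over the Wt and 17 over the Tg7 libraries, a ratio of 1.19 (95% interval for counting error 0.543 to 2.66).

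Acta2, Tagln, Vim, Des and Tpm2 were lower at 12w than at 2w in Wt islets. From 2w to 12w Acta2 fell 4.05-fold (log2 −2.02, SE 0.29, adjusted p = 0.000461) and Tagln 3.48-fold (log2 −1.80, SE 0.32, adjusted p = 0.00203). Vim fell 3.16-fold (log2 −1.66, SE 0.24, adjusted p = 0.000482), Des 2.68-fold (log2 −1.42, SE 0.33, adjusted p = 0.0099) and Tpm2 2.59-fold (log2 −1.38, SE 0.24, adjusted p = 0.00168). In each of these genes, and in Tpm1, which did not pass the test, all 12w libraries lay below all 2w libraries. Cnn1 went from 13 counts over the 2w libraries to 0. That is 3.13-fold lower with the 0 set to a floor of 3 counts over the group and the 13 taken as exact. Actn4 rose 1.29-fold (log2 0.37, SE 0.11, adjusted p = 0.034), an estimate that turned to −0.019 with library size alone (0.33 relative to the median of that scaling, which was −0.35). Its call held without Wt 2w library 1 or Wt 12w library 1 or 4, and was lost without each of the other 9 libraries, with adjusted p up to 0.149.

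In all, 6 of the 9 tested genes passed the test with age in Wt islets, 5 lower and 1 higher, where 15.8% of all genes did (7.91% lower and 7.9% higher). Groups did not overlap for 6 downward and 1 upward, beside 15.6% and 15.7% of all genes. The median of the 9 was −1.38, beside 0.045 for all genes. In Tg7 islets 4 passed, all of them lower, where 13% of all genes did (6.01% lower and 7.02% higher). Groups did not overlap for 6 downward and 0 upward, beside 19.2% and 21.5% of all genes. Acta2 fell 1.98-fold (log2 −0.99, SE 0.27, adjusted p = 0.0264), Tpm2 1.99-fold (log2 −0.99, SE 0.23, adjusted p = 0.011), Vim 1.75-fold (log2 −0.81, SE 0.23, adjusted p = 0.034) and Tpm1 1.30-fold (log2 −0.38, SE 0.11, adjusted p = 0.0416). Tagln (−0.41, SE 0.29) and Des (−0.21, SE 0.30) had overlapping groups. Cnn1 counts went from 17 to 4, a ratio of 0.240 (95% interval for counting error 0.0587 to 0.735). The libraries held 7, 0 and 10 counts at 2w and 0, 0 and 4 at 12w, so the groups overlapped. The interval leaves out this spread between pools. Without the Tg7 2w library 1 the Vim value was −0.60 (adjusted p = 0.135), Des turned to 0.19 and 1 gene, Tpm2, still passed. Tpm2 was also the 1 gene to pass without Tg7 12w library 1 or 2, and none passed without Tg7 12w library 3. Age comparisons share their libraries with the Tg7 comparisons. The sources used here do not say whether both ages were prepared together.

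A change of the Tg7 effect from 2w to 12w was tested by the interaction term. None of the 9 genes passed by edgeR, where 1.18% of all genes did (0.871% higher and 0.307% lower), nor by DESeq2 on all 12 libraries, and 5 had an unadjusted p under 0.05. These were Tagln (1.39, SE 0.43, adjusted p = 0.156), Des (1.21, SE 0.44, adjusted p = 0.227), Acta2 (1.03, SE 0.39, adjusted p = 0.249), Vim (0.85, SE 0.33, adjusted p = 0.263) and Actn4 (−0.34, SE 0.16, adjusted p = 0.33). A larger effect at 12w than at 2w is thus not shown for any single gene.

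Other genes of the same machinery were read from 5 lists. Of the smooth muscle contractile list, 17 of 20 genes were tested. None passed at 2w by edgeR with TMM scaling and the filter on low counts, where 10.6% of all genes tested did. Under the alternatives 0 or 1 passed. The number was 1 with library size alone, with upper-quartile factors, with DESeq2 and with edgeR on each age alone. It was also 1 with a filter of 50 counts in 3 libraries and with the replicate block, and 0 with no filter. At 12w 3 were higher and 1 lower in Tg7 islets, with a median of 0.48, where 12.5% of all genes tested were higher and 11.2% lower. The number called was 1 without Tg7 12w library 2, 2 without Tg7 12w library 3, and between 1 and 6 under the other alternatives. Mylk, the kinase that switches on smooth muscle myosin, went from 4.43 ± 0.748 to 7.60 ± 1.52 CPM (log2 0.78, SE 0.22), and the actin-binding genes Smtn (0.65, SE 0.21) and Cald1 (0.55, SE 0.10) also rose. The call of Cald1 held without each library, that of Mylk was lost without 3 of the 12 and that of Smtn without 5. With edgeR and with DESeq2 on the 12w libraries alone the calls of Mylk and Smtn were also lost. That of Smtn was lost with the replicate block as well. Pdlim3, which binds actinin at the Z-line of muscle, fell by 1.70 (SE 0.53), a call lost without 3 of the 12 libraries. It was also lost with library size alone and with edgeR on the 12w libraries alone. Myh11, the smooth muscle myosin heavy chain, was at 5.08 ± 0.511 CPM in 12w Wt and 7.22 ± 0.574 CPM in 12w Tg7 islets and did not pass. With age in Wt islets 6 of the 17 fell and none rose, where 7.91% of all genes fell and 7.9% rose. The fall was led by Itga8 (−2.03), Mcam (−1.55) and Mylk (−1.50). In Tg7 islets 6 fell as well, beside 6.01% of all genes.

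The non-muscle actomyosin and cross-linker list had all 30 genes tested, of which 7 were lower and 2 higher at 12w, with a median of −0.16, beside 11.2% lower and 12.5% higher over all genes tested. Scaled by library size alone, 2 were lower and 9 higher. Without Wt 12w library 4 the count was 9 lower and 5 higher. The actin-bundling Palld (−1.10, SE 0.25), the calponin paralogue Cnn3 (−1.05, SE 0.14) and the tropomyosin Tpm4 (−1.03, SE 0.12) fell. The call of Palld was lost with library size alone. The small GTPase Rhoc rose (1.18, SE 0.15). At 2w 3 of the 30 passed, near the 10.6% of all genes tested, among them Tpm4 (−0.44) and Rhoc (0.53). That number was 0 without Wt 2w library 3 and 1 without each of 6 other libraries (Wt 2w 2, Tg7 2w 2 and 3, and Tg7 12w 1, 2 and 3). The 2w call of Tpm4 was also lost with library size alone and with upper-quartile factors. At 12w Tpm4 fell from 345 ± 29.3 to 169 ± 11.7 CPM and Cnn3 from 239 ± 47.0 to 115 ± 4.61 CPM.

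The actin-linked transcription factors had 5 of 6 genes tested. None passed at 2w, where 10.6% of all genes tested did. At 12w 2 were lower and 1 higher, beside 11.2% lower and 12.5% higher over all genes tested. At 12w Srf, whose box was searched above, went from 72.4 ± 17.1 CPM in Wt to 34.6 ± 3.63 CPM in Tg7 islets (log2 −1.07, SE 0.16, adjusted p = 0.000369). Fhl1, a LIM-domain protein, fell too (−0.61, SE 0.15), and the Srf coactivator Mrtfb rose (0.52, SE 0.15). Without Tg7 12w library 1 only 1 of these 3, Srf, passed. The call of Fhl1 was also lost with library size alone. That of Mrtfb was also lost without Wt 12w library 2 or Tg7 12w library 2, and with edgeR and with DESeq2 on the 12w libraries alone. Myocd, the coactivator specific to smooth and cardiac muscle, was not tested, at 0.0529 to 0.19 CPM in the 4 groups.

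Of the other intermediate filament list 17 of 20 genes were tested. At 12w 5 were higher and 1 lower, with a median of 0.20, beside 12.5% higher and 11.2% lower over all genes tested. The number called lay between 4 and 6 with a library left out and between 6 and 9 under the other alternatives. The neuronal filament genes Prph (2.85, SE 0.66) and Nefl (2.44, SE 0.82) rose from 1.39 ± 0.205 to 10.1 ± 2.01 CPM and from 0.57 ± 0.276 to 3.12 ± 0.94 CPM. Sync (syncoilin), which binds the desmin network of muscle, went from 2.21 ± 0.883 to 10.1 ± 0.666 CPM (log2 2.15, SE 0.31). At 2w it was the 1 gene of the list that passed (1.58, SE 0.31), where 10.6% of all genes tested did. The call of Nefl was lost without 8 of the 12 libraries. Nefm (0.92) and Nes (0.91, nestin) rose, and the call of Nes was lost without Wt 12w library 1 or 4 or Tg7 12w library 2 or 3. The epithelial keratin Krt8 fell from 644 ± 172 to 343 ± 14 CPM (−0.91, SE 0.16), a call lost with library size alone. Of the striated muscle list 5 of 15 genes were tested. Its sum lay between 7.0 and 20.5 CPM in the 12 libraries. At 12w 1 of the 5 was higher, beside 12.5% of all genes tested, namely Actn2, the actinin of the sarcomere (1.54, SE 0.48). This call was lost without Wt 12w library 1, Tg7 12w library 2 or Tg7 12w library 3 and with edgeR on that age alone.

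Markers of the cells that use these filaments were also read. The summed level of 10 stellate cell and pericyte markers was 257.6 to 332 CPM in 2w Wt, 267.5 to 300.1 CPM in 2w Tg7, 79.3 to 156 CPM in 12w Wt and 197 to 204 CPM in 12w Tg7 libraries. Of the 9 tested, none passed between Tg7 and Wt at 2w, where 10.6% of all genes did. At 12w 5 were higher, beside 12.5% of all genes, with a median of 0.96. The number lay between 4 and 7 with a library left out and between 4 and 8 under the other alternatives. Pdgfrb, a marker of this list, was at 11.5 ± 2.84 CPM in 12w Wt and 38.7 ± 0.289 CPM in 12w Tg7 islets (log2 1.74, SE 0.15). Higd1b and Angpt1 had group means below 1 CPM throughout. With age in Wt islets 6 of the 9 fell, where 7.91% of all genes did.

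The 10 fibroblast markers had sums of 201 to 283 CPM in 2w Wt, 393 to 566 CPM in 2w Tg7, 27.8 to 40.0 CPM in 12w Wt and 257 to 291 CPM in 12w Tg7 libraries. Of these genes 6 were higher at 2w and 9 at 12w, beside 6.07% and 12.5% of all genes tested. At 2w the number was 3 without Tg7 2w library 1 and 1 without Wt 2w library 3. The 10 endothelial markers summed to 924 to 1183 CPM and 1034 to 1138 CPM in Wt and Tg7 at 2w, and to 414 to 532 CPM and 831 to 886 CPM at 12w, when 9 were higher. In 12w Wt islets the fibroblast markers Pdgfra, Lum, Fbln1, Mfap5 and Pi16 were below 1 CPM, with Mfap5 at 0 in at least 1 library, and no endothelial marker was. The part of stellate cells, fibroblasts and endothelial cells in the levels of Acta2, Tagln, Vim and Des was not tested. Of the mesothelial list 2 of 6 genes were tested and 1, Msln, was lower at both ages. It stood at 44.9 ± 10.9 CPM in 12w Wt and 1.05 ± 0.213 CPM in 12w Tg7 islets, while the 4 genes not tested (Upk3b, Wt1, Lrrn4 and Upk1b) had at most 17 counts over a group, with those of Upk3b, Wt1 and Upk1b more in Tg7 than in Wt islets at both ages. Schwann cell markers summed to 18.3 to 51.6 CPM over all libraries and 3 of 7 were higher at 12w, but 1 or 0 without each of 6 libraries, Wt 12w library 4 among them. Macrophage markers had 1 of 10 higher at 2w, beside 6.07% of all genes, Lyz2 (8.25 to 62.9 CPM in the Tg7 libraries), and 0 without Tg7 2w library 1, Wt 2w library 1 or Wt 2w library 3. At 12w 1 of the 10 was lower, 2 were lower without Wt 12w library 4, and 2 were higher and none lower with library size alone. Ductal markers had 2 of 6 higher at 12w (1 without Wt 12w library 4 or any 1 of the Tg7 12w libraries). Acinar markers had 1 of 8 lower at 12w. None of the 3 lymphocyte markers tested passed at either age, against 1 at each age with DESeq2 on all 12 libraries. At 2w the number lay between 0 and 6 under the alternatives and between 0 and 3 with a library left out. It was 6 of 10 with no filter, 2 of 10 with DESeq2 on that age alone and 3 of 4 without Tg7 2w library 3. Of the 9 β-cell markers 7 were lower at 2w and 8 at 12w. For each of these lists the share of all genes tested was 6.07% higher and 4.55% lower at 2w. At 12w it was 12.5% higher and 11.2% lower.

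**Figure D4:**
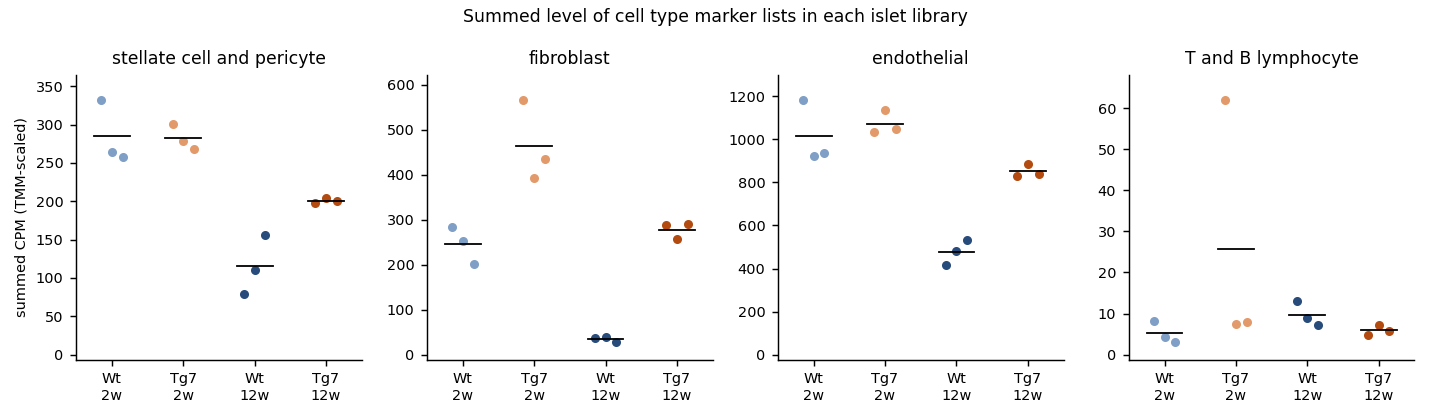
Summed TMM-scaled CPM of 4 lists of 10 cell type markers in each library, on linear axes. Points are libraries and lines are group means. The 3 12w Wt libraries are lowest for the stellate cell and pericyte, fibroblast and endothelial lists, and 1 Tg7 2w library stands at 62.0 CPM for the T and B lymphocyte list.

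The genes most like 4 of the members over the 12 libraries were ranked by Pearson's r of log2 CPM, as a description. The libraries share their groups, so r includes the differences between groups. For Acta2 they were Filip1l (0.978), Nckap5l (0.977), Ctgf (0.974), Tspan9 (0.972) and Gdpd5 (0.969). For Vim they were Itpripl2 (0.977), Gimap4 (0.972), the collagen gene Col1a2 (0.97), Zfp36l1 (0.967) and Tspan12 (0.966). Des was closest to Lhfp (0.938), Hic1 (0.938), Col14a1 (0.934), X99384 (0.93) and Cdr2l (0.926). Tpm1 was closest to Ints2 (0.931), Ccdc93 (0.927), Lingo3 (0.92), Pigm (0.914) and Ddx39 (0.912). Among the members themselves Acta2 and Tagln had the highest r, 0.935, which was 0.766 after removal of the group means. Vim and Des had 0.913 (0.615 after that removal) and Acta2 and Tpm2 0.91 (0.306). Vim and Actn4 had −0.823, which turned to 0.471. Of the 36 pairs, 9 had a negative r before removal of the group means.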

How the data were processed

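The authors trimmed paired-end reads with Trimmomatic, aligned them to mm9 (TopHat2 2.0.11) and assigned them to Ensembl genes with featureCounts. The deposited values are raw counts per gene and sample. The submitters' notes name bcl2fastq 2.20.0. With a strand setting not given in the sources used here, overlapping antisense transcripts cannot be told apart.

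Genes were named from GENCODE vM1 (37205 of 37991 rows). With filterByExpr (minimum count 10, minimum total 15) 15961 genes were kept. Counts were scaled with TMM factors (0.684 to 1.19) and fitted as 4 group means with glmQLFit and glmQLFTest in edgeR 4.0.16 (R 4.3.3). The threshold was a Benjamini-Hochberg adjusted p of 0.05. Each standard error is |log2 fold change| over √F. Libraries held 11610697 to 17515758 counts, so that 1 count was worth 0.0497 to 0.126 CPM. Intervals and floors (3 counts over a group) cover counting error only. Replicates of a group differed by more than counting noise. Same-numbered libraries did not deviate together and were not paired. Alternatives were library size alone, upper-quartile factors, DESeq2 1.42.0, each age alone, no filter, a filter of 50 counts in 3 libraries, replicate number as a block and each library left out. The fit was tested on simulated data.

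All 10 genes are named. Of the 5 related lists at most 5 called genes per comparison with the highest absolute log2 fold change are named, with Myh11, Myocd, Krt8 (at 12w), the markers named, the gene pairs for ratios and the box with 1 base off chosen after values were seen. The values of 1 gene that the rule names are not reported here. The members, lists and markers were chosen with earlier results of these data known. Promoters and miRNAs are from RefSeq (GRCm38.p6) and windows were placed on mm9 by exact match.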

Additional observations from a re-analysis of the deposited data

Results flagged for a closer look

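None of the 9 tested members and none of the related genes differed in its Tg7 effect between 12w and 2w by the interaction term. Of the 9 tested stellate cell and pericyte markers 2 did, both higher, beside 0.871% of all genes tested higher and 0.307% lower. So did 3 of 10 fibroblast and 1 of 10 endothelial markers, all higher. Of the mesothelial markers 1 of 2 did and of the β-cell markers 1 of 9, both lower. None of the macrophage, lymphocyte, Schwann, ductal and acinar markers tested did. The Tg7 effect was greater at 12w than at 2w by 1.60 (log2, SE 0.21, adjusted p = 0.00176) for Pdgfrb and by 1.40 (SE 0.31, adjusted p = 0.0437) for Cspg4, by edgeR's quasi-likelihood test. At 2w Pdgfrb stood at 74.9 ± 5.60 CPM with Wt and 82.6 ± 6.22 CPM with Tg7 mice, and at 12w at 11.5 ± 2.84 CPM and 38.7 ± 0.289 CPM (SD, n = 3 each).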

How the results depend on the processing

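At 2w 1 member passed the test, and 2 passed with DESeq2 on all 12 libraries, with DESeq2 on each age alone and with the replicate block (Vim and Actn4 in each). Over the libraries left out the number lay between 0 and 2. With age in Tg7 islets 4 passed, and between 0 and 4 with a library left out, 0 of them without Tg7 12w library 3 and 1 without Tg7 2w library 1, Tg7 12w library 1 or Tg7 12w library 2, and 2 without Tg7 2w library 2. Scaling by library size alone turned the sign of Tpm1 at 12w (0.058), of Actn4 with age in Wt (−0.019) and Tg7 islets (−0.089), and of the interaction of Tpm1 (0.059) and Actn1 (0.22). The interaction of Actn1 was also 0.0022 with upper-quartile factors, 0.10 with the replicate block and between −0.17 and 0.075 with a library left out. With a library left out Tagln at 2w lay between −0.19 and 0.27, Des at 2w between −0.050 and 0.52, Des with age in Tg7 islets between −0.38 and 0.19, and Myl9 at 12w between −0.069 and 0.16. The block, which took 1 call (Acta2 at 12w, 1.09, adjusted p = 0.0565) and added 2 (Actn4 at 2w, −0.30, and Actn1 with age in Wt, −0.39), does not pair the samples, since same-numbered residuals had r between −0.167 and −0.0112. Of 306 values of members under the other alternatives, 284 kept sign and call, 7 lost and 8 gained a call and 7 changed sign. With a library left out, 488 of 540 kept both. The cause of these changes was not tested. The number of all genes called on the interaction was 188, and 566 with DESeq2, 420 with no filter, 347 with library size alone and 502 with the block. At 2w it was 1695, and 2985 with DESeq2 on that age alone and 2630 with the block. With age in Wt islets it was 2524, and 4120 with library size alone and 3817 with the block. With a library left out these numbers lay between 82 and 579 for the interaction, 754 and 3071 at 2w, 1336 and 4020 with age in Wt, 1115 and 3329 with age in Tg7 islets (2079 with all) and 2417 and 4036 at 12w (3772 with all). Of the genes called, 57.2% were higher at 2w and 52.7% at 12w, against 84.0% and 93.5% with library size alone and 65.9% and 64.7% with upper-quartile factors. With age 50% (Wt) and 53.9% (Tg7) were higher, against 7.89% and 37.8% with library size alone, and for the interaction 73.9% against 93.1%, 61.8% with DESeq2 and 56.9% with no filter. Cnn1, with 0 to 17 counts over a group, could not be tested at this depth.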
